A study of Mus musculus with 4 samples.

Results

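Circular RNAs (circRNAs) of mouse brain that have exactly 1 end on an annotated exon boundary were 2883 of the 23980 circles detected, 12.02% (95% Wilson interval 11.6 to 12.4%). They were chosen by coordinates alone: the start of the circle lies on the start of an exon, or its end on the end of an exon, of the GENCODE M21 annotation of build GRCm38, and not both. Of the other circles, 19904 had both ends on boundaries of the same gene, 1101 had no end on a boundary and 92 joined boundaries of different genes. No circle had to be left out for a small nuclear or nucleolar RNA host. The annotated end was a splice site in 2875 of the 2883 circles and only a transcript start or end in the other 8.

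The study removed brain tissue from mice 3 hours after permanent middle cerebral artery occlusion (MCAO) with an intraluminal filament, a model of ischaemic stroke, and from sham-operated mice. The 4 groups were the infarct core near the frontal lobe, the infarct core near the occipital lobe, the penumbra (the endangered tissue around the core) and sham brain. RNA of 6 mice was mixed for each MCAO library, the number of sham mice is not stated, and the labels give no strain, age or genotype. Each group is 1 library with no replicate, so tests below compare libraries, not conditions, and intervals cover counting error only. The libraries held 121393 back-splice counts in the frontal core, 83090 in the occipital core, 96349 in penumbra and 106558 in sham tissue. CPM below means counts of a circle per 1000000 circRNA counts of its library.

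A circRNA forms when the spliceosome joins the donor site at the end of an exon back to the acceptor site at the start of the same or an upstream exon. Introns end in AG just before an acceptor and mostly begin with GT just after a donor. Circles are abundant in brain, many come from genes of synapses, and they outlast linear RNA because they have no free ends. In a circle with 1 unannotated end, 1 of the joined ends lies on an annotated exon boundary and the other on none of its kind. Whether each unannotated end is a splice site used in the tissue was not tested.

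The letters at unannotated ends are shown for circles that the results below return to, and for Xpo7 and Mbtd1. The Xpo7 acceptor lies 6 bases and the Mbtd1 acceptor 4 bases downstream of the nearest annotated acceptor. All letters were read on the host strand from GENCODE M21 transcripts, which was possible where the site lies inside an annotated exon. Capitals mark GT after the last base of the circle at a donor, or AG before the first base of the circle at an acceptor.
Zfp62 donor, chr11:49215936-49215961, plus strand: atccatacagGTgagaaaccctatga
Eif4e donor, chr3:138555482-138555507, plus strand: ctaaaaatagGTttgttgtttaagaa
Zfp644 donor, chr5:106618055-106618080, minus strand: agacaagacaGTaagtagtcatatat
Arf3 donor, chr15:98740321-98740346, minus strand: aaaacaagaaGTgagagccaggcagc
Asph donor, chr4:9630757-9630782, minus strand: ggtgttgatgGTacgtcacagaatga
Tasp1 donor, chr2:139947157-139947179, minus strand: ctccacagctGTgagtacctcag
Atxn1 acceptor, chr13:45956563-45956575, minus strand: aAGtatcctgcac
Xpo7 acceptor, chr14:70682841-70682870, minus strand: ccctttgtctttacatacAGtagcgtaagg
Mbtd1 acceptor, chr11:93905153-93905172, plus strand: acgaagacAGaacattcttc

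The sequence could be read at 1103 of the 2883 unannotated ends, and all 1103 had the dinucleotide of a splice site. AG stood before 286 of 286 readable acceptors (95% Wilson interval 98.7 to 100%) and GT after 817 of 817 readable donors (99.5 to 100%). Whether the circRNA caller kept only junctions with these letters is not given in the sources used here, so this count may describe a filter.

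For letters beyond the dinucleotide, the share of unannotated sites with those typical of splice sites lay between the shares of annotated sites and of other GT or AG positions of the same exons. GTNAG, with N any base, followed 245 of 664 unannotated donor sites (36.9%, 33.3 to 40.6%), against 54.9% of 2092 annotated donor sites of both-end circles and 6.18% of 105017 other GT positions. The last base of the circle was G at 68.2% of unannotated donors, 79.2% of annotated donors and 19.5% of the other GT positions. At acceptors, C or T stood before AG at 116 of 161 unannotated sites (72.0%, 64.7 to 78.4%), against 91.9% of annotated sites and 45.6% of other AG positions. The median share of C and T in the 16 bases 5 to 20 before the cut, where a polypyrimidine tract lies, was 62.5% at unannotated acceptors, 75% at annotated ones and 50% at other AG positions. Sites read here are those inside exons, so the values do not cover intronic sites.

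The unannotated end was the donor in 1604 circles (55.6%, 53.8 to 57.4%) and the acceptor in 1279 (44.4%). Among the 548 circles with 10 or more counts the donor share was 62.4%. By counts the acceptor share was 42.3% in the frontal core, 44.9% in the occipital core, 43.4% in penumbra and 42.9% in sham tissue. Circles with an unannotated acceptor spanned a median of 25923 bases of genome, introns included, and those with an unannotated donor 13426 bases.

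Unannotated donors lay mostly in last exons and introns, and unannotated acceptors mostly in introns. Of the 1604 donors, 743 lay in a last exon, 670 in an intron, 139 downstream of the host and 47 in an internal exon. Of the 1279 acceptors, 877 lay in an intron, 212 in an internal exon, 137 upstream of the host and 48 in a first exon. The last exon of a transcript has no annotated donor, so a circle that joins an annotated acceptor to a donor inside such an exon falls here by the rule, and only 38 of 19588 both-end circles (0.194%) had their donor end in a last exon.

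**Figure D1:**
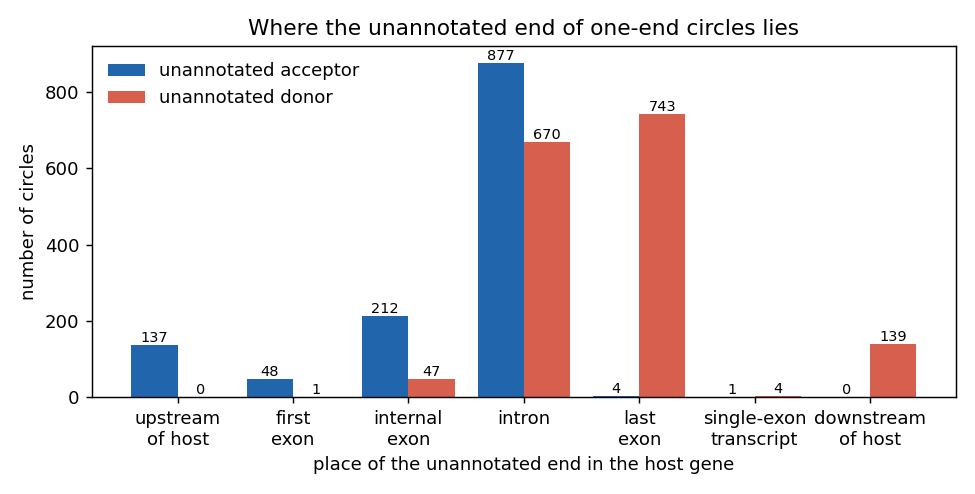
Number of one-end circles (vertical axis) by the place of the unannotated end in the host gene (horizontal axis), with blue bars for unannotated acceptors and red bars for unannotated donors. The 743 donors in last exons and the 877 acceptors in introns are the tallest bars of their side.

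The 743 circles with a donor in the last exon came from 555 host genes and used 615 donor sites. The exon was the last of every annotated transcript that holds the site in 731 of them. The donor lay in the 3′ UTR in 489, in coding sequence in 196 and in a noncoding transcript in 58. In 65 the annotated acceptor had the same exon number as the donor, as in a circle made of the last exon alone. The exon numbers can come from different transcripts of the host, so this count is approximate. In 271 (36.5%) the annotated acceptor was that of exon 2. All 743 circles together held 31.4% (30.4 to 32.4%) of one-end counts in the frontal core, 28.3% (27.2 to 29.5%) in the occipital core, 28.5% (27.5 to 29.6%) in penumbra and 28.5% (27.4 to 29.5%) in sham tissue.

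Exon 2 was also the most frequent annotated acceptor over all circles with an unannotated donor. It was used by 623 of 1604 (38.8%, 36.5 to 41.2%), against 4734 of 19588 both-end circles (24.2%, 23.6 to 24.8%). Of acceptors in introns with known intron lengths, 417 of 851 (49.0%) lay in intron 1, beside 50.8% of the intronic bases before the annotated donor, on average, that belong to intron 1. The unannotated end lay in the intron directly next to the annotated exon in 303 of 851 intronic acceptors (35.6%) and 303 of 630 intronic donors (48.1%). Of the 276 ends outside the host, 51 lay inside another gene.

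Circles with 1 unannotated end had a lower median count and a longer median span than circles with both ends annotated. Their median was 4 counts over the 4 libraries, against 5 for both-end circles, and 548 of 2883 (19.0%) had 10 or more counts, against 30.3% of both-end circles. All 4 libraries held 628 of them (21.8%), against 32.5% of both-end circles. The median span was 18440 bases, against 12232.5 for both-end circles, and 277 (9.61%) spanned over 100 kb, against 4.64%. Circles share hosts and libraries, so these differences are given as descriptions.

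Their share of the circRNA counts differed little between libraries. It was 6.91% (6.77 to 7.05%) in the frontal core, 7.03% (6.86 to 7.21%) in the occipital core, 7.01% (6.86 to 7.18%) in penumbra and 6.88% (6.73 to 7.03%) in sham tissue, with overlapping intervals. The number detected was 1876 in the frontal core, 1767 in the occipital core, 1874 in penumbra and 1784 in sham tissue.

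The circle with the most counts, chr1:22346293-22393948, comes from Rims1, a scaffold protein of the presynaptic active zone where vesicles fuse. It had 571 counts in the frontal core, 450 in the occipital core, 445 in penumbra and 503 in sham tissue, or 4703.7, 5415.8, 4618.6 and 4720.4 CPM in that order. Its acceptor lies in intron 29, 3615 bases downstream of the nearest annotated acceptor, and its donor is that of exon 32. It held 64.1% (62.4 to 65.8%) of its own counts and those of both-end circles at this donor, with 64.7% in the frontal core, 66.5% in the occipital core, 63.4% in penumbra and 62.1% in sham tissue. Without it the one-end share of circRNA counts was 6.44% in the frontal core, 6.49% in the occipital core, 6.55% in penumbra and 6.40% in sham tissue.

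Among the 15 circles with the most counts, 6 others also had the unannotated end in an intron: those of Etv6, E2f5, Tmem178b, Zranb1, Gm21992 and Erc2. Etv6, an ETS family transcription factor, gave a circle at chr6:134062064-134066465 with 99 counts in the frontal core, 72 in the occipital core, 103 in penumbra and 92 in sham tissue. Its acceptor lies in intron 1, 4243 bases upstream of the annotated one. A circle with the same donor and an acceptor 4 bases further downstream had 23, 13, 26 and 18 counts in these libraries in that order. The annotated donor was thus joined to a pair of close intronic acceptors in each library. E2f5, a cell cycle transcription factor, gave chr3:14587310-14588313 with 64 counts in the frontal core, 29 in the occipital core, 60 in penumbra and 77 in sham tissue. Its donor lies 12 bases into intron 3, and no both-end circle used its annotated acceptor, that of exon 2. Zranb1, a deubiquitinase, gave chr7:132948044-132950435 with 40, 34, 48 and 61 counts in the frontal core, the occipital core, penumbra and sham tissue. Its acceptor lies in intron 1, 1541 bases upstream of the annotated one. Tmem178b gave chr6:40004145-40004671 with 61, 43, 59 and 62 counts in that order, and its donor lies in intron 2, 413 bases from the nearest annotated donor. Gm21992 gave chr19:4784724-4794009 with 37, 37, 48 and 56 counts in that order, and its donor lies in intron 2 of Gm21992 but in the last exon of Rbm4, so its host is uncertain. Erc2, an active zone protein that binds Rims1, gave chr14:28317249-28384043 with 47, 30, 36 and 38 counts in the same order of libraries, and its donor lies in intron 19, 66729 bases from the nearest annotated donor.

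Abundant circles with a donor in the last exon included genes of zinc finger proteins and of translation. Zfp62, a zinc finger gene, gave chr11:49212695-49215945 with 88 counts in the frontal core, 36 in the occipital core, 40 in penumbra and 55 in sham tissue, from exon 2 into the coding part of the last exon. Eif4e, the protein that binds the cap of mRNA to start translation, gave chr3:138546321-138555491 with 83, 32, 40 and 50 counts in the frontal core, the occipital core, penumbra and sham tissue. Zfp644 gave chr5:106618071-106638635 with 69, 37, 44 and 45 counts in the same order, with its donor in the 3′ UTR. Each of these 3 had its highest CPM in the frontal core, but other abundant circles of this kind did not. Zfp101 gave chr17:33381199-33382586 with 42, 27, 34 and 51 counts in the same order, with its donor in a coding last exon. Its CPM was highest in sham tissue, at 478.6 against 346 in the frontal core. The Asph circle, described below, was highest in penumbra, at 685 CPM against 601.4 in the frontal core. None of these circles was called in any of the 6 comparisons. Zfp644 held 54.2% of its own counts and those of both-end circles at its annotated acceptor, while Zfp62 had no both-end circle at all. Genes named Zfp, Zscan, Zkscan or Zbtb hosted 22 of the 196 circles with a donor in a coding last exon (11.2%, 7.53 to 16.4%). Over all 743 circles with a donor in a last exon the number was 35 (4.71%, 3.41 to 6.48%). Such genes hosted 75 of all 2883 one-end circles (2.60%) and 1.09% of both-end circles. Zinc finger genes have close copies, so the gene of origin of such reads is less certain.

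Arf3, a small GTPase of the Golgi, gave chr15:98740337-98742829 with 53 counts in the frontal core, 25 in the occipital core, 29 in penumbra and 39 in sham tissue, from exon 2 into the coding part of its last exon. Asph, an aspartate hydroxylase gene that also makes shorter proteins, gave chr4:9630773-9639347 with 73, 40, 66 and 60 counts in the frontal core, the occipital core, penumbra and sham tissue, in the last exon of a short transcript. Arhgap5 gave chr12:52516079-52519967 with 58, 42, 49 and 39 counts in the same order. Its acceptor lies in a first exon, in the 5′ UTR, 28 bases upstream of the nearest annotated acceptor. No both-end circle used the annotated end of the Arf3 or the Arhgap5 circle, while the Asph circle held 33.7% of its own counts and those of both-end circles at its annotated acceptor.

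Ends outside the host ranged from a few bases to over 100 kb away. Wnk3, a kinase that regulates ion cotransport, gave chrX:151198022-151211030 with 10 counts in the frontal core, 8 in the occipital core, 11 in penumbra and 8 in sham tissue, and its acceptor lies 56 bases upstream of the gene. C130071C03Rik, a noncoding gene, gave chr13:83872656-83884235 with 13, 2, 8 and 9 counts in the same order of libraries and a donor 41 bases downstream. Flrt1, a membrane protein of cell adhesion, gave chr19:7105087-7106002 with 3, 14, 5 and 15 counts in that order, and its acceptor lies 273 bases upstream, inside Macrod1 on the opposite strand. Catspere2 gave chr1:177842843-178122812 with 11, 5, 12 and 23 counts in that order, and its acceptor lies inside Catspere1, a gene of the same family, so reads of the pair may not be told apart.

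**Figure D2:**
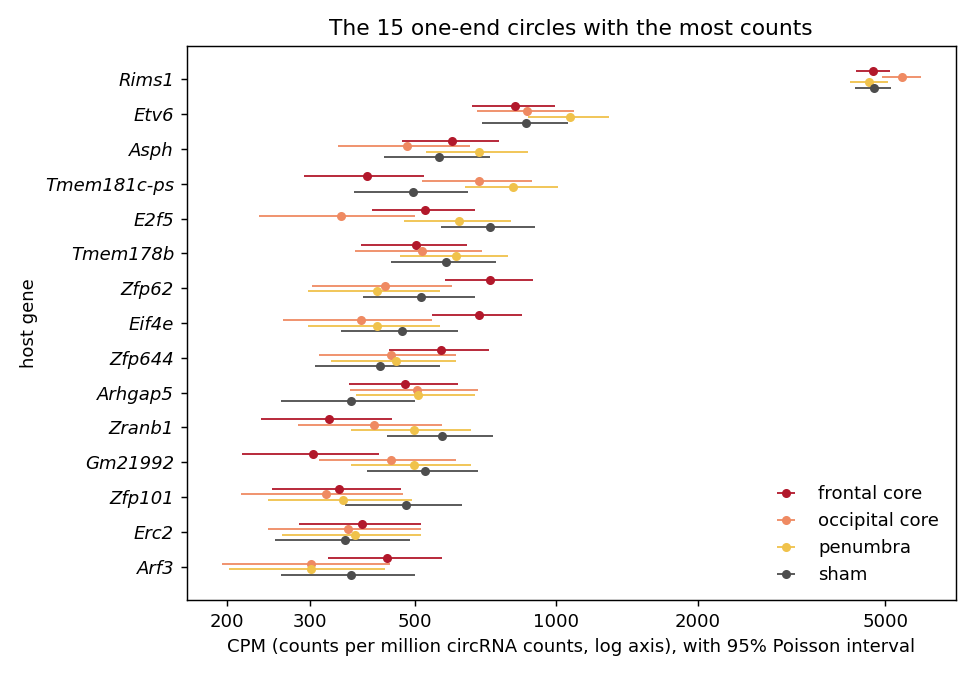
CPM (horizontal log axis) of the 15 one-end circles with the most counts, by host gene (vertical axis), with a point for each library and its 95% Poisson interval. Rims1 lies above all the others in all 4 libraries, and the intervals of most other circles overlap between libraries.

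Most unannotated ends were far from any annotated splice site of the same kind. The median distance was 5030 bases for acceptors and 3445 for donors. Within 10 bases lay 116 acceptors (9.07%) and 24 donors. Of these acceptors, 37 lay 3 bases downstream of the annotated one, 27 lay 4 bases downstream and 19 lay 3 bases upstream. Tandem acceptors, a pair of AG a few bases apart, are a known source of small differences between mRNAs of one gene. Of the 24 donors, 6 lay 4 bases upstream and 5 lay 5 bases downstream.

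**Figure D3:**
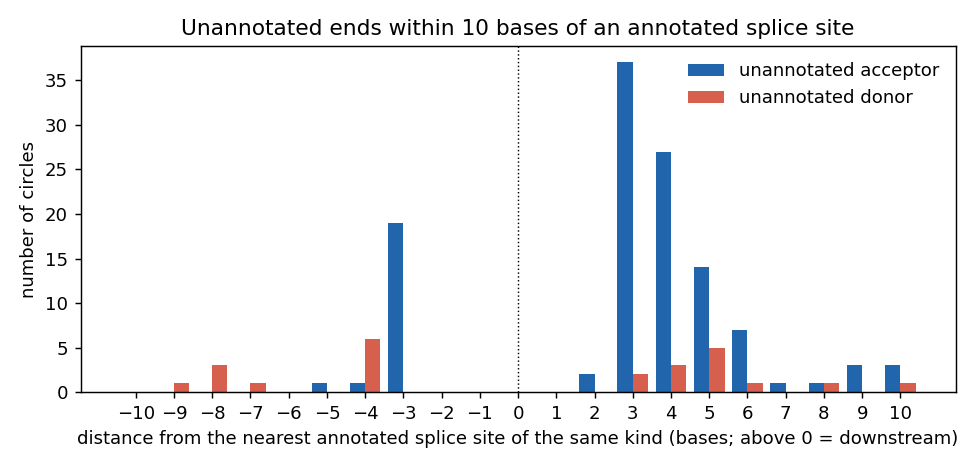
Number of one-end circles (vertical axis) by distance in bases from the nearest annotated splice site of the same kind (horizontal axis, above 0 downstream), for acceptors in blue and donors in red. The tallest bar is the 37 acceptors 3 bases downstream.

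For 90 of these 116 acceptors the data also held a circle that differs only by using the annotated acceptor nearby. The unannotated acceptors held 889 counts and the annotated ones 15822, so 5.32% (4.99 to 5.67%) of the counts of such pairs were at the unannotated site. The share was 5.08% (4.51 to 5.73%) in the frontal core, 6.05% (5.27 to 6.93%) in the occipital core, 5.65% (4.98 to 6.40%) in penumbra and 4.77% (4.18 to 5.43%) in sham tissue. The unannotated site had more counts than the annotated one in 10 pairs.

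Individual pairs 3 bases apart ranged from a few percent to most of the counts, in hosts picked by their counts after values were seen. Atxn1, which encodes ataxin 1, had 121 counts at the unannotated and 1687 at the annotated acceptor for chr13:45795509-45956572, a share of 6.69%. Elf2, an ETS factor, had 60 against 1392 counts (4.13%), and Kmt2a, a histone methyltransferase, 26 against 194 (11.8%). Dock9, an activator of the GTPase Cdc42, had 52 against 16 counts (76.5%), and the unannotated site led in the frontal core, the occipital core and penumbra tissue and in sham tissue by 18 to 4, 9 to 5, 14 to 2 and 11 to 5 counts. Whether mismatched alignment of a few bases contributes to these shares was not tested.

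**Figure D4:**
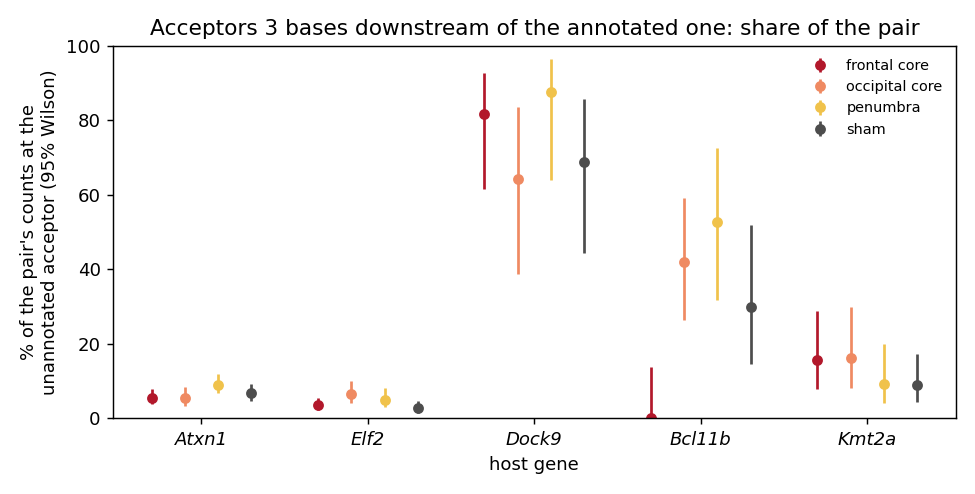
Percent of the counts of a pair that are at the acceptor 3 bases downstream of the annotated one (vertical axis, with 95% Wilson intervals) in each of the 4 libraries, for 5 host genes (horizontal axis). Dock9 lies above 60% in all libraries, Atxn1, Elf2 and Kmt2a below 20%, and Bcl11b between 0% in the frontal core and 52.6% in penumbra tissue.

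The 2883 circles used 2452 unannotated sites. Most of these, 2132, were used by 1 circle, and 320 were used by 2 or more, with 751 circles in all. The same site was an end of a circle with no annotated end at 138 of the sites. A donor in exon 10 of Tasp1, a protease, 13 bases upstream of the annotated donor, closed 7 circles with 39 counts in the frontal core, 37 in the occipital core, 50 in penumbra and 36 in sham tissue. Its letters are printed above. An acceptor in intron 10 of Nbea, a protein of membrane traffic in neurons, opened 6 circles with 6, 8, 8 and 5 counts in these libraries in that order. An acceptor in intron 3 of Lingo2 opened 5 circles with 35, 23, 28 and 32 counts, and the acceptor in the first exon of Arhgap5 opened 4 with 112, 66, 75 and 64 counts. Circles that share a site are not independent observations of it.

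Host genes numbered 1539, and 961 of them had 1 such circle. No both-end circle came from 399 of the hosts (25.9%), which held 523 one-end circles. Snhg14, the long noncoding host of small nucleolar RNAs, had the most, 39 circles with 40 counts in the frontal core, 33 in the occipital core, 38 in penumbra and 36 in sham tissue. Foxp1, a transcription factor of neurons, had 23 circles, Lingo2 had 20, and Atxn1 and Rims2 had 17 each. Long noncoding hosts gave 221 one-end circles (7.67%, 6.75 to 8.69%), against 0.613% of both-end circles. A both-end circle shared the annotated end of 1714 one-end circles (59.5%).

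Hosts of synapses and channels, from lists chosen with earlier results of these data known, had one-end circles in all 4 libraries. Presynaptic genes gave 61 circles on 7 of 15 genes, at 6804.3 CPM in the frontal core, 7534.0 in the occipital core, 6839.7 in penumbra and 6719.3 in sham tissue, most of it from the Rims1 circle above. Postsynaptic genes gave 34 circles on 10 of 12 genes at 757.9, 758.2, 622.7 and 628.8 CPM in the same order. Glutamate receptors gave 28 circles on 12 of 16 genes, and ion channels 34 on 9 of 15. Hypoxia and stress genes gave 6 circles on 4 of 11 genes, at 90.6 CPM in the frontal core, 144.4 in the occipital core, 228.3 in penumbra and 328.5 in sham tissue. The Dapk1 circle alone made up 49.4 CPM of this in the frontal core, 96.3 in the occipital core, 186.8 in penumbra and 262.8 in sham tissue. Both-end circles of these genes stood at 1252.1, 1191.5, 1172.8 and 1689.2 CPM in the same order. The Dapk1 circle was 1 of the 6 and was called lower in the frontal core than in sham tissue, where 0.458% of all circles tested were called lower, and no circle of the other lists was called in any comparison. Neuron marker genes gave 13 one-end circles on 4 of 8 genes and astrocyte markers 2 on 1 of 6. Markers of oligodendrocytes, their precursors, microglia, endothelium, pericytes, motile cilia and blood gave none. Of these, motile cilia markers gave 30 both-end circles and endothelium markers 1, while the other lists gave no both-end circle either. In bulk tissue, fewer cells of a type and less RNA per cell cannot be told apart.

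The comparisons asked which circles differ between core, penumbra and sham libraries. A circle was called at an adjusted p below 0.05 and a CPM ratio of at least 2 either way, by the two-sided Fisher's exact test with Benjamini-Hochberg adjustment over all circles with 10 or more counts in the pair of libraries. Between 0 and 3 one-end circles were called per comparison, too few to read their share against that of all circles.

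In the frontal core against sham tissue, 2 of 324 one-end circles tested were lower and 0 were higher, where 0.458% of all circles were called lower and 0.289% higher. The median log2 ratio was 0.08 over one-end circles and 0.03 over all circles. Ccdc30, a coiled-coil protein gene, had 10 counts in the frontal core and 51 in sham tissue at chr4:119339761-119340684, a CPM ratio of 0.172 (95% interval 0.0779 to 0.343), adjusted p = 1.42e-05 by Fisher's exact test. Its acceptor lies in intron 9, 811 bases upstream of the annotated one. Dapk1, a kinase of cell death pathways, had 6 counts in the frontal core and 28 in sham tissue at chr13:60762357-60762518, a ratio of 0.188 (0.0637 to 0.463), adjusted p = 0.0170 by Fisher's exact test. This circle of 162 bases lies in the last exon, 27, with its donor in the 3′ UTR, and no both-end circle came from Dapk1. The occipital core library had 8 and the penumbra library 18 counts of it.

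In the occipital core against sham tissue, 1 of 251 one-end circles was lower and 0 were higher, where 0.175% of all circles were called lower and 0.292% higher. The median log2 ratio was -0.13 over one-end circles and -0.06 over all. The circle called was again that of Ccdc30, with 11 counts in the occipital core and 51 in sham tissue, a ratio of 0.277 (0.130 to 0.537), adjusted p = 0.00851 by Fisher's exact test. The penumbra library had 17 counts of it. Both-end circles that share its annotated donor had 8 counts in the frontal core, 7 in the occipital core, 11 in penumbra and 10 in sham tissue. The Ccdc30 circle was thus 55.6% of its own and these counts in the frontal core, 61.1% in the occipital core, 60.7% in penumbra and 83.6% in sham tissue. The comparisons with sham share 1 sham library.

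In penumbra against sham tissue, 1 of 265 one-end circles was higher and 0 were lower, where 0.0538% of all circles were called higher and 0% lower. The median log2 ratio was -0.01 over one-end circles and 0.01 over all. Gm47283, a gene model at the end of chromosome Y, had 44 counts in penumbra and 7 in sham tissue at chrY:90739142-90793417, a ratio of 6.95 (3.11 to 18.3), adjusted p = 3.58e-05 by Fisher's exact test. The frontal core library had 13 counts of it and the occipital core library 20. The acceptor of this circle lies 45596 bases upstream of Gm47283, and no both-end circle came from that gene, so the host is uncertain. This end of chromosome Y shares sequence with chromosome X, so the origin of these reads is uncertain, and the labels do not give the sexes of the pooled mice.

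**Figure D5:**
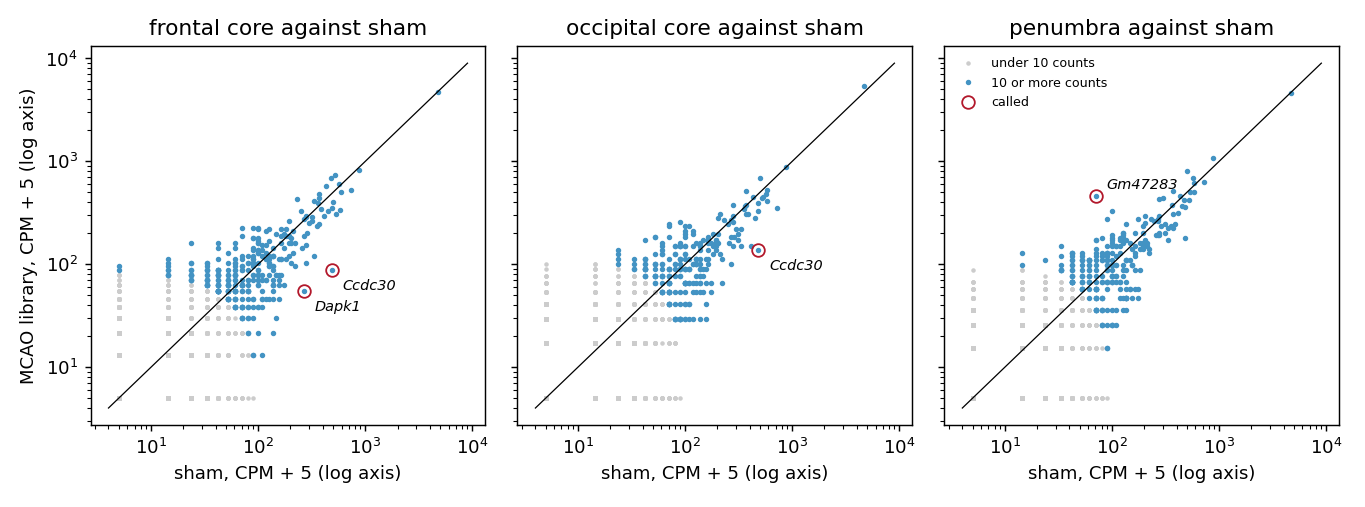
CPM + 5 of every one-end circle in the frontal core, the occipital core and penumbra tissue (vertical log axes) against sham tissue (horizontal log axes), with circles under 10 counts in the pair in grey, the others in blue and called circles ringed in red. Ccdc30 lies below the line of equal level in both cores, Dapk1 in the frontal core, and Gm47283 above it in penumbra tissue.

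In penumbra against the frontal core, 3 of 289 one-end circles were higher and 0 were lower, where 0.53% of all circles were called higher and 0.404% lower. The median log2 ratio was -0.05 over one-end circles and -0.05 over all. Gm47283 had 44 counts in penumbra and 13 in the frontal core, a ratio of 4.26 (2.26 to 8.63), adjusted p = 0.000625 by Fisher's exact test. Tmem181c-ps, a pseudogene of a family with near-identical copies on chromosome 17, had 78 counts in penumbra and 48 in the frontal core at chr17:6477017-6639790, a ratio of 2.05 (1.41 to 3.00), adjusted p = 0.0216 by Fisher's exact test. Its annotated end is only a transcript start and its donor lies 136736 bases downstream, so its host is uncertain. The occipital core library had 57 counts of it and the sham library 53. Bcl11b, a transcription factor of deep cortical and striatal neurons, had 10 counts in penumbra and 0 in the frontal core at chr12:107989465-107989827, adjusted p = 0.0345 by Fisher's exact test. With a floor of 3 counts in place of the 0 in the frontal core library, the ratio was 4.20 (1.08 to 23.8). This ratio depends on the floor and is not a lower bound. The count filter sums the pair of libraries, so the circle was tested only because of its counts in penumbra. The sham library had 6 counts of the Bcl11b circle.

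In the frontal core against the occipital core, 2 of 286 one-end circles were lower and 0 were higher, where 0.159% of all circles were called lower and 0.185% higher. The median log2 ratio was 0.05 over one-end circles and 0.07 over all. The Bcl11b circle had 0 counts in the frontal core and 13 in the occipital core, 6.33-fold lower when computed with the same floor, adjusted p = 0.00622 by Fisher's exact test. It passed the count filter only through its counts in the occipital core. Its acceptor lies 3 bases downstream of the annotated one of exon 2. The circle with the annotated acceptor had 24 counts in the frontal core, 18 in the occipital core, 9 in penumbra and 14 in sham tissue, and the unannotated site held 0% (0 to 13.8%) in the frontal core, 41.9% (26.4 to 59.2%) in the occipital core, 52.6% (31.7 to 72.7%) in penumbra and 30% (14.6 to 51.9%) in sham tissue. These shares reuse the counts behind the calls and are not separate evidence for them. Bicral, a subunit gene of a chromatin remodelling complex, had 5 counts in the frontal core and 21 in the occipital core at chr17:46858436-46858698, a ratio of 0.163 (0.0480 to 0.444), adjusted p = 0.0166 by Fisher's exact test. Its acceptor lies 216 bases upstream of the gene, and 5 circles used it.

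Several circles with large ratios did not pass the threshold, and that of Gpm6a was picked for its ratio. Gpm6a, a membrane glycoprotein of neurons, had 19 counts in the frontal core and 2 in sham tissue at chr8:55037328-55059515, a ratio of 8.34 (2.01 to 73.8), adjusted p = 0.0530 by Fisher's exact test. A Homer1 circle, from a postsynaptic scaffold gene whose short transcripts are induced by neuronal activity, had 12 counts in the frontal core, 0 in the occipital core, 0 in penumbra and 1 in sham tissue at chr13:93341756-93356185, with a ratio of 10.53 (1.56 to 450.3) and adjusted p = 0.113 by Fisher's exact test for the frontal core against sham; it was picked after its values were seen. Circles at 1 shared site did not always have ratios on the same side of 1. At the Lingo2 acceptor, the circle chr4:36259857-36279316 had 27 counts in the frontal core and 7 in sham tissue, while chr4:36136454-36279316 had 5 in the frontal core and 16 in sham tissue, with adjusted p = 0.0946 and 0.154 by Fisher's exact test. At the Tasp1 donor, chr2:139947170-139951579 had 31 counts in penumbra and 10 in sham tissue, while chr2:139947170-139985208 had 2 in penumbra and 10 in sham tissue, with adjusted p = 0.0798 and 0.414 by Fisher's exact test. Scaled by TMM factors, 3 further circles were called lower than in sham tissue. They were Nrcam in the frontal core (ratio 0.345, adjusted p = 0.0457 with TMM factors and 0.0596 with library totals), and E2f5 (0.447, 0.0194 and 0.0586) and Rasal2 (0.331, 0.0379 and 0.0664) in the occipital core, with the same quantities in the same order by Fisher's exact test. TMM factors were 0.996 in the frontal core, 1.06 in the occipital core and 0.978 in sham tissue. They therefore lower the ratio to sham of every circle in both cores. The share of all circles called with TMM factors is not given here, so this count cannot be read against it.

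In penumbra against the occipital core, 0 of 230 one-end circles were called by Fisher's exact test, where 0.0303% of all circles were called higher and 0.0303% lower. An unadjusted p below 0.05 was found for 18 of them, and their median log2 ratio was 0.11, against 0.01 over all circles. With edgeR's exact test and an assumed coefficient of variation of 0.2 between samples, 0 one-end circles were called in each of the 6 comparisons, so every call above rests on counting error alone. At an unadjusted p below 0.05 by Fisher's exact test, 47 of 324 one-end circles tested passed for the frontal core against sham. The count was 29 of 251 for the occipital core against sham and 36 of 265 for penumbra against sham. It was 34 of 289 for penumbra against the frontal core and 31 of 286 for the frontal core against the occipital core. The share of all circles that passed this cut was not counted, so these counts cannot be read against it.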

How the data were processed

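Ribosomal RNA was removed from total RNA before sequencing, per the labels' protocols, and the submitters' processing notes name TopHat2 2.0.10, Bowtie and build mm9; the circRNA caller is not given in the sources used here. The deposited table of the authors holds counts of back-splice reads per circle, raw, with 1 column per library; a deposited FPKM table was not used. Exon boundaries came from GENCODE M21 (GRCm38), since 89.1% of circle starts and 89.7% of ends fell on its boundaries and 0.192% of starts did when moved by 1 base. The host strand gave the side of the unannotated end. No genome sequence was used here.

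Counts were scaled to library totals (83090 to 121393) and compared with scipy 1.17.1 as described above, over the whole table. The test was run on simulated counts with counting error alone. That check holds no spread between samples, so it cannot show how the calls would fare with replicates. Ratios have exact conditional intervals, shares have Wilson intervals, levels have exact Poisson intervals, each at 95%. A 0 was replaced by 3 counts for a ratio. Alternatives used TMM factors of edgeR 4.0.16, size factors of DESeq2 1.42.0, other count filters, edgeR's exact test, a boundary tolerance of 2 bases and other transcript sets. Named circles were the 15 with the most counts, every called one, and some of those of the most used sites, places and offsets. Some of the circles with the highest and lowest CPM ratios of the MCAO libraries against sham were named too, not all of them. Others are said to be picked after values were seen. The members, lists and tests were chosen with earlier results of these data known.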

Additional observations from a re-analysis of the deposited data

How the results depend on the processing

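No paired analysis was possible because each group is 1 library. With 10 or more counts required, 548 one-end circles were left, their median span was 13080 bases, their acceptor share 37.6%, and their share of counts 5.64% in the frontal core, 5.72% in the occipital core, 5.72% in penumbra and 5.73% in sham tissue. With basic transcripts alone, the acceptor share was 46.2% and the share of counts 9.83%, 10.01%, 9.94% and 9.77% in the same order. For the frontal core against sham, 3 circles were called with a filter of 30 counts, all lower, 1 with no count filter and 0 by edgeR's exact test. For the occipital core against sham, 3 were called with TMM factors, 3 with a filter of 30 counts, 0 with no filter and 0 by edgeR. For penumbra against sham, 3 were called with a filter of 30 counts, 2 higher and 1 lower, and 0 by edgeR. For penumbra against the frontal core, 4 were called with a filter of 30 counts, 3 higher and 1 lower, 1 was called with no filter and 0 by edgeR. For the frontal core against the occipital core, 1 was called with no filter, 0 with a filter of 30 counts and 0 by edgeR. A filter changes how many circles are tested, and edgeR's test adds an assumed spread. The share of all circles called at each of these settings is not given here, so the counts cannot be read against it. No called ratio changed direction with TMM or DESeq2 factors. TMM factors ran from 0.970 to 1.06 and DESeq2 totals were near the library totals. A ratio of at least 2 either way could not cross 1 under them, so this outcome was fixed in advance. Of 352 ratios of named circles, 11 moved across 1 with TMM factors and 3 with DESeq2 factors, all of them uncalled and between 0.920 and 1.05 with library totals. At 83090 to 121393 counts a library, a circle with a few counts cannot show a 2-fold difference.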
